A study of Mus musculus with 18 samples.

Results

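The genes described here are 10 that encode components of the basement membrane: the collagen chains Col4a1, Col4a2 and Col15a1, the laminin chains Lama2, Lama4, Lamb1, Lamb2 and Lamc1, the linker nidogen (Nid1) and the proteoglycan perlecan (Hspg2). They were chosen by symbol, all 10 were found among the 51435 genes of the deposited tables, and all 10 passed the filter on low counts. They were measured by RNA-seq in the left ventricles of 18 mice, from poly(A)-selected RNA. The WT group held 9 mice, and the Mut group held 9 WWP2 Mut/Mut mice (KO in the sample titles), which are homozygous for a germline CRISPR/Cas9 frame-shift allele of the E3 ubiquitin ligase gene Wwp2 on a C57BL/6J background and were compared with wild-type littermates. Every mouse in both groups received angiotensin II from an osmotic pump at 500 ng per kg per min for 28 days, starting at 8 weeks of age. A group without angiotensin II was not analysed here, so the values describe genotype and variation among pressor-treated hearts and not the response to angiotensin II.

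Basement membranes are thin sheets of matrix that wrap each cardiomyocyte and underlie the endothelium of the capillaries. Laminins are heterotrimers of an alpha, a beta and a gamma chain that polymerise at the cell surface, collagen IV forms a second, cross-linked network, and nidogen and perlecan connect them. Lama2, the chain of merosin, belongs mainly to the cardiomyocyte basement membrane, and Lama4 mainly to that of vessels. Because endothelial cells are a main source of collagen IV in heart, the 10 genes were set beside Pecam1 and Cdh5, which encode adhesion molecules of endothelial junctions.

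Library totals were 24566994 to 37451087 counts. Each of the 10 genes had at least 1347 counts in every mouse, so counting error was small beside the spread between mice. Cardiomyocyte markers summed to 29432 to 38454 TPM, and all 10 genes of an endothelial marker list were above 1 TPM in every mouse, with sums of 304 to 422 TPM in WT and 275 to 413 TPM in Mut. Fibroblast markers summed to a median of 863 TPM in WT and 714 TPM in Mut. A few libraries stood apart. In 5 of them (3 WT, 2 Mut) atrial markers summed to more than 50 TPM, summed liver transcripts ran from 4.4 to 312 TPM in WT (median 69.3, the highest in mouse 45-1) and from 4.72 to 56.2 TPM in Mut (median 19.1), and the recorded RNA concentration of WT mouse 43-3 was 1.68 ng per µl, whereas every other mouse had at least 88.6 ng per µl. Whether that value was entered correctly could not be checked, and it is part of a covariate of the fit. RNA concentration also differed between the groups, with a median of 98.3 ng per µl in WT and 187 ng per µl in Mut. The deposited gene body coverage fraction, recorded under the name genebody_bottomhalf and not defined further in the sources used here, ran from 0.0288 to 0.0540. Wwp2 itself had 23.4, 25.6 and 27.2 TMM-normalized CPM (read counts scaled to library size, with trimmed-mean normalization) as the lowest, median and highest WT value and 6.39, 8.05 and 16.2 in Mut, so the groups did not overlap.

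Collagen IV was the most abundant collagen of the group. Col4a1 (ENSMUSG00000031502, chr8:11198423-11312826, minus strand, GRCm38) had 44.0, 84.6 and 118 TPM as lowest, median and highest value in WT and 53.4, 86.0 and 122 TPM in Mut. Col4a2 (ENSMUSG00000031503, chr8:11312805-11449287, plus strand), which supplies the partner chain of the same trimer, had 23.8, 47.6 and 64.4 TPM in WT and 30.3, 43.6 and 65.1 TPM in Mut. The ranges of the groups overlapped almost entirely for both chains. TPM values are scaled by transcript length as well as by library size and are used here to compare levels between genes. For Lama4, Lamc1, Hspg2 and Col15a1 the counts that made up 1 TPM differed more than 2-fold between libraries, so their place among the other genes depends on the library.

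Both genes lie head to head, and the gene annotation lets their outermost transcripts overlap by 22 bases at chr8:11312805-11312826. That stretch is shown because it joins the pair of members whose transcripts varied together most closely. Beside it stand the bases upstream of the annotated gene start of Hspg2 and Lamb2, a pair that also varied together, and of Nid1 and Lamb1, which varied with collagen IV. Sequences are from RefSeq (GRCm38.p6), on the plus strand, with capitals marking the motifs GGGCGG and CCAAT on either strand. The RefSeq table of promoters, each window running from 250 bases before to 50 after a gene's start in RefSeq, matched 8 of the 10 genes. For Lama2 and Col15a1 the windows (chr10:27616893-27617192 and chr4:47207762-47208061) do not hold the start of the gene annotation used here (27619758 and 47208161).
Col4a1 and Col4a2 overlap, chr8:11312805-11312826: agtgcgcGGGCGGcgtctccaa
Hspg2, chr4:137468553-137468768: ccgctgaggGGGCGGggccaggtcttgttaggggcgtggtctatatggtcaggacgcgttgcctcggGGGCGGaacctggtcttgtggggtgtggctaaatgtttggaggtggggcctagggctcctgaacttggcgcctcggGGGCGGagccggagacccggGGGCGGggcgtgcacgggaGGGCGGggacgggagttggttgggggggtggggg
Lamb2, chr9:108479612-108479735: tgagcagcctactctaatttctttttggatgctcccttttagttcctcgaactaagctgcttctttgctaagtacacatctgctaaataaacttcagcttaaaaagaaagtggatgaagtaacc
Nid1, chr13:13437352-13437550: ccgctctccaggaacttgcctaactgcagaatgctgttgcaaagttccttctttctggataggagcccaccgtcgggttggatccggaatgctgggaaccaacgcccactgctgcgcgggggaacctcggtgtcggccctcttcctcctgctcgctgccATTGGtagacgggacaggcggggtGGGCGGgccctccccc
Lamb1, chr12:31265043-31265233: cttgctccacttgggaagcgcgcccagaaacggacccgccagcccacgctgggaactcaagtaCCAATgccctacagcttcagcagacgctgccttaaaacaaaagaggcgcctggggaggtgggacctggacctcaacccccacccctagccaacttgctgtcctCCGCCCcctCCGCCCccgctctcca
GGGCGG, the core of a GC box, was present in 6 of the 8 windows of 300 bases and in 35.7% of all 32851 windows of that length. The windows of Col4a1 and Col4a2 overlap, and the 1 GGGCGG of the Col4a1 window lies in the shared stretch printed above, so it is counted for both genes. CCAAT was present in 4 of 8 and in 37.4% of all, and TATAAA, the TATA box, in 0 of 8 and in 13.6% of all. The Hspg2 window held GGGCGG 5 times and the Lamb2 window 0 times, and their GC contents were 70.3% and 44.0%. A match or its absence describes the letters of the window only.

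The laminin chains covered a wide range of levels. Lamb2 (ENSMUSG00000052911, chr9:108479736-108490530, plus strand), the beta chain of adult muscle and vessel laminins, was the highest, with 47.3, 61.4 and 102 TPM in WT and 37.1, 47.2 and 69.9 TPM in Mut. Lamc1 (ENSMUSG00000026478, chr1:153218922-153332786, minus strand), the gamma chain shared by most laminins, had 19.4, 23.1 and 36.2 TPM in WT and 17.6, 25.5 and 30.9 TPM in Mut. Lama4 (ENSMUSG00000019846, chr10:38965515-39110188, plus strand) had 11.9, 21.1 and 35.7 TPM in WT and 11.4, 23.3 and 38.7 TPM in Mut. These ranges overlapped between the groups, and Lama4 had the largest coefficient of variation of the 10 genes in TPM, 40.1%, but the smallest in TMM-normalized CPM, 13.2%. Lama2 (ENSMUSG00000019899, chr10:26980036-27619758, minus strand) had 10.3, 15.8 and 20.2 TPM in WT and 12.2, 14.9 and 20.0 TPM in Mut. Lamb1 (ENSMUSG00000002900, chr12:31265234-31329644, plus strand), the beta chain found in many developing tissues, was the lowest member, with 7.16, 13.2 and 16.4 TPM in WT and 8.03, 10.4 and 17.2 TPM in Mut.

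The remaining members link or coat the networks. Hspg2 (ENSMUSG00000028763, chr4:137468769-137570630, plus strand) had 44.4, 80.9 and 121 TPM in WT and 47.9, 73.0 and 99.1 TPM in Mut. Nid1 (ENSMUSG00000005397, chr13:13437551-13512269, plus strand), whose product binds the laminin gamma chain and collagen IV, had 7.74, 16.3 and 25.4 TPM in WT and 7.13, 14.6 and 28.4 TPM in Mut. Col15a1 (ENSMUSG00000028339, chr4:47208161-47313167, plus strand), a proteoglycan collagen at the outer face of muscle and capillary basement membranes, had 16.2, 32.6 and 36.3 TPM in WT and 17.9, 26.0 and 35.2 TPM in Mut. None of these members separated the groups.

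Ordered by mean TPM over the 18 mice, the genes ran Col4a1, Hspg2, Lamb2, Col4a2, Col15a1, Lamc1, Lama4, Nid1, Lama2 and Lamb1. Not every step in that order exceeded the spread between mice. Only the steps from Col4a2 to Col15a1 and from Lama2 to Lamb1 had the same direction in 18 of 18 mice, by 0.74 ± 0.45 and 0.44 ± 0.18 on the log2 TPM scale (mean ± SD, n = 18). Hspg2 exceeded Lamb2 in 16 of 18 mice, by 0.39 ± 0.38. The other 6 steps were smaller than their SD: Col4a1 to Hspg2 (higher in 9 of 18 mice), Lamb2 to Col4a2 (15 of 18), Col15a1 to Lamc1 (12 of 18), Lamc1 to Lama4 (10 of 18), Lama4 to Nid1 (12 of 18) and Nid1 to Lama2 (7 of 18).

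**Figure D1:**
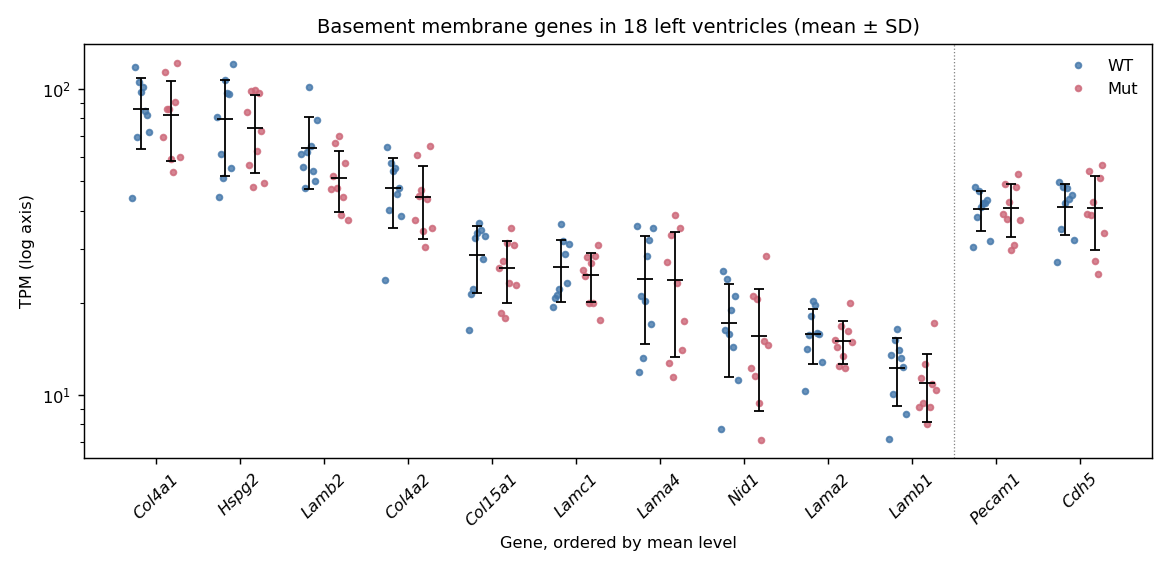
TPM (log axis) of the 10 basement membrane genes, ordered by mean level, and of Pecam1 and Cdh5 in each of 9 WT (blue) and 9 Mut (red) mice, with bars for mean ± SD. The groups overlap for every gene, and the means fall from 84.2 TPM for Col4a1 to 11.6 TPM for Lamb1.

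The first question was whether the genotype changed these transcripts. None of the 10 genes passed edgeR's quasi-likelihood test for a difference between Mut and WT with lane and RNA concentration as covariates. At an FDR under 0.05, 0 of 10 were called, against 1 of 24804 genes tested (0.00403%), which was Wwp2 (log2 fold change -1.40, SE 0.16, FDR 0.00113 by edgeR). At an unadjusted p under 0.05, 0 of 10 passed, against 908 of all genes (3.66%), and DESeq2 called 0 of 10 as well. The log2 fold change was under 0 in 9 of 10 genes, against 51.9% of all genes tested, with a median of -0.06 against -0.01 over all genes. That count fell to 2 of 10 when RNA concentration was left out of the model, and to 5 of 10 without the 5 libraries with atrial transcripts, so no direction can be given. Without WT mouse 43-3 it was 9 of 10. With each mouse left out in turn the count ran from 6 to 10 and the median from -0.13 (without WT mouse 16-1, and likewise without Mut mouse 24-3) to -0.04 (without Mut mouse 22-3). In bulk tissue, fewer cells of a type and less RNA per cell cannot be told apart, and the part of the RNA concentration in these signs was not tested.

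The intervals bound what could have been missed. Col4a1 and Col4a2 had log2 fold changes of -0.03 (95% interval -0.35 to 0.30) and -0.03 (-0.28 to 0.23). The most negative estimates were those of Col15a1 (-0.18, interval -0.54 to 0.18), Lamc1 (-0.18, -0.54 to 0.18) and Nid1 (-0.16, -0.50 to 0.17). Lama2 and Lama4, the alpha chains of muscle and vessel laminins, had -0.06 (-0.29 to 0.17) and 0.01 (-0.24 to 0.25). The beta chains Lamb1 and Lamb2 had -0.06 (-0.31 to 0.19) and -0.09 (-0.34 to 0.16), and Hspg2 had -0.06 (-0.36 to 0.24). Unadjusted p-values from edgeR ran from 0.312 for Col15a1 to 0.944 for Lama4. Leaving out WT mouse 16-1 brought Col15a1 to -0.33 with an unadjusted p of 0.0272 and an edgeR FDR of 0.902, Lamc1 to -0.31 and Nid1 to -0.28. With each mouse left out in turn the ranges were -0.33 to -0.10 for Col15a1, -0.31 to -0.10 for Lamc1 and -0.28 to -0.05 for Nid1. The endothelial markers did not pass either, with 0.05 (-0.18 to 0.27) for Pecam1 and -0.02 (-0.30 to 0.26) for Cdh5.

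Within sequencing lanes, the difference in mean log2 TMM-normalized CPM had the same sign in 4 of 4 lanes only for Lamb2, which was lower in Mut by 0.01 to 0.11. The same gene on the log2(TPM + 1) scale gave -0.31 (interval -0.69 to 0.07) with an unadjusted limma p of 0.0997. On that scale the median of all genes above 1 TPM was itself shifted by -0.13. Lamb2 therefore did not pass the test on either scale. Without the 5 libraries with atrial transcripts its edgeR log2 fold change turned to 0.0383.

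**Figure D2:**
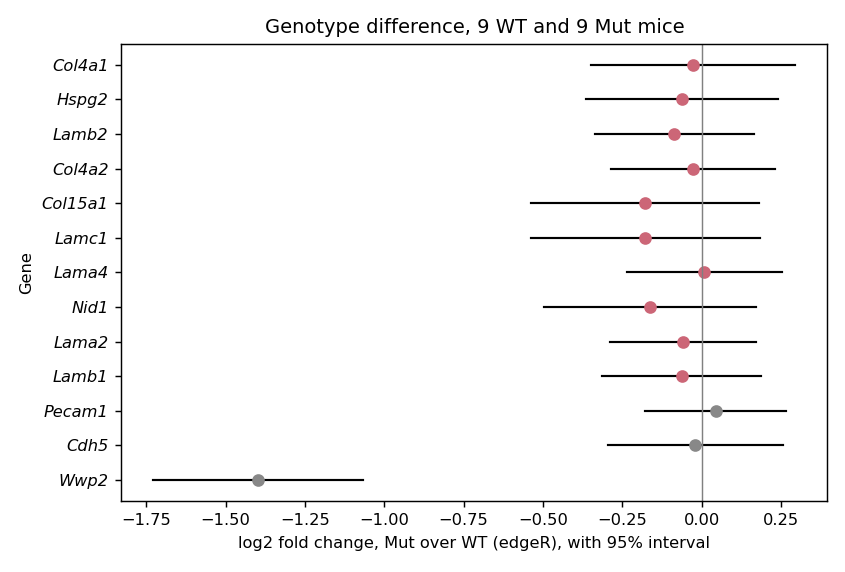
Log2 fold change of Mut over WT from edgeR, with 95% intervals, for the 10 basement membrane genes (red), Pecam1, Cdh5 and Wwp2 (grey). All intervals except that of Wwp2 include 0, and those of the 10 members lie between -0.54 and 0.30.

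Other genes of the pathway were read in the same fit. Of 28 further basement membrane components, 0 were called and 0 had an unadjusted p under 0.05, with 14 estimates above and 14 under 0 and a median of 0.01. Egflam, which encodes the dystroglycan ligand pikachurin, had a log2 fold change of 0.25 (SE 0.13). Among 17 receptors and receptor partners, 0 were called and 0 passed the unadjusted threshold, led by the Lutheran laminin receptor Bcam (0.14, SE 0.11) and the integrin chain Itga9 (-0.26, SE 0.24). Of the receptor estimates 13 of 17 were under 0, against 51.9% of all genes. Of 13 genes for folding, hydroxylation and export of collagen IV and laminin, 0 passed either threshold and 10 estimates were under 0, led by the prolyl hydroxylase subunit P4ha2 (-0.17, SE 0.09) and the collagen chaperone Serpinh1 (-0.22, SE 0.14). For the 12 measured genes of alpha-dystroglycan glycosylation, which build the laminin-binding sugar of the receptor, and for 15 genes of matrix degradation, 0 passed either threshold, with 6 of 12 and 10 of 15 estimates under 0. Gmppb of the former had a log2 fold change of 0.08, and the protease gene Ctss and the inhibitor gene Timp2 led the latter (0.18 and -0.14). These lists stood beside a background of 3.66% of genes with an unadjusted p under 0.05.

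Because chains assemble into trimers, ratios were compared within each mouse, of products that bind each other (Col4a2 to Col4a1, Nid1 to Lamc1, summed beta chains to Lamc1) and of alternative chains for the same position (Lamb2 to Lamb1, Lama4 to Lama2). The Col4a2 to Col4a1 TPM ratio was 0.549 ± 0.017 in WT and 0.542 ± 0.033 in Mut (SD, n = 9 each), with a coefficient of variation of 4.64% over all mice although Col4a1 and Col4a2 alone had coefficients of 27.0% and 25.8%. Ranges were 0.530 to 0.580 in WT and 0.481 to 0.584 in Mut, and the difference did not pass the two-sided exact permutation test (p = 0.577). The Lamb2 to Lamb1 ratio was 5.51 ± 2.00 in WT and 4.95 ± 1.80 in Mut (exact permutation p = 0.487). The Lama4 to Lama2 ratio ranged from 0.679 to 3.46 (exact permutation p = 0.955) and the Nid1 to Lamc1 ratio from 0.349 to 1.22 (exact permutation p = 0.713). Taken from the counts, these ratios ranged only from 0.695 to 1.19 and from 0.767 to 1.02, so that most of their spread in TPM was not seen in the counts. Of the 5 ratios, only the summed beta chains over Lamc1 had a raw p under 0.05, at 2.96 ± 0.45 in WT and 2.54 ± 0.34 in Mut (log2 difference -0.22, exact permutation p = 0.0428, adjusted over the 5 ratios 0.214, lower in 3 of 4 lanes). Taken from the counts, the same ratio differed by -0.05 (exact permutation p = 0.785), so the difference depended on the unit. This log2 ratio followed gene body coverage at r = 0.94 from the counts and at r = -0.11 in TPM. For Lama4 to Lama2 and Nid1 to Lamc1, r was 0.80 and 0.69 from the counts and 0.93 and -0.95 in TPM. Which unit is nearer to the transcript ratio was not tested.

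Relative to the geometric mean of Pecam1 and Cdh5 in the same mouse, no member passed the test for a difference by genotype. Col4a1 stood at 2.09 ± 0.29 times the endothelial level in WT and 2.00 ± 0.21 times in Mut (SD, n = 9 each), and Lamb2, the member with the largest difference, at 1.63 ± 0.56 and 1.32 ± 0.49 times (log2 difference -0.30, exact permutation p = 0.186). The 10 exact permutation p-values ran from 0.157 for Lamb1 to 0.947 for Lama4. Leaving out Mut mouse 52-1 gave 1 of 10 an unadjusted exact permutation p under 0.05, Lamb2 at 0.0488. These relative levels are in TPM, and their log2 values also varied with gene body coverage. The r was 0.94 for Lama4, 0.93 for Hspg2, 0.82 for Lamc1, 0.68 for Lamb2, 0.63 for Col15a1 and -0.89 for Nid1. For Lama2, Lamb1, Col4a1 and Col4a2 it was 0.27, -0.19, -0.30 and -0.35. These r values were not tested.

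Over the 18 mice, several members varied with the endothelial markers, and the direction for Lama4 depended on the unit. In log2(TPM + 1), 6 of 10 members were correlated with Pecam1 and the same 6 with Cdh5 at an adjusted permutation p under 0.05, Col4a1, Col4a2, Nid1, Lamb1 and Lama2 positively and Lama4 negatively (30 relations tested, 100000 resamples, smallest possible p 1e-05). Col4a1 and Cdh5 gave r = 0.927 (permutation p = 1e-05, adjusted 3.75e-05), rho = 0.901 (permutation p = 1e-05) and r = 0.902 without the 2 mice farthest from the median of Cdh5. In log2 TMM-normalized CPM, the same pair gave r = 0.803 (permutation p = 6e-05, adjusted 0.0009), rho = 0.849 (permutation p = 3e-05) and r = 0.808 without 2 mice. With lane and genotype removed its r was 0.939 in TPM and 0.798 in CPM. Nid1 and Cdh5 gave r = 0.886 in TPM (permutation p = 1e-05, rho = 0.851 with permutation p = 2e-05, r = 0.807 without 2 mice) and 0.784 in CPM (permutation p = 0.0001, rho = 0.746 with permutation p = 0.00055, r = 0.745 without 2 mice). Expressed genes in general also followed these markers in TPM, with a median r of 0.48 with Pecam1 and 0.45 with Cdh5, against 0.04 and 0.02 in CPM. Of all genes 32.1% and 43.3% had an absolute r at least as large in TPM as the smallest among the 6 members called, against which that count must be read, and Lama2 with Pecam1 (r = 0.693) lay at the percentile 81.3. In CPM, 7 of 10 members passed with each marker, all positively: Col4a1, Col4a2, Nid1, Lamb1, Lama2, Lamc1 and Lama4. Among all genes the corresponding shares were 4.32% for Pecam1 and 2.80% for Cdh5. By Spearman's rho 5 members passed with each marker, Lama2 and Lamc1 being lost for Pecam1 and Lama2 and Lama4 for Cdh5. Over the 9 mice of each genotype, 0 members passed with Pecam1 and 1 with Cdh5 within WT, and 1 and 3 within Mut. The r values of those 7 members with Pecam1 ran from 0.253 (Lamc1) to 0.699 (Lamb1) within WT and from 0.562 (Lama2) to 0.850 (Col4a1) within Mut.

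Lama4 changed sign with the unit. With Pecam1 it gave r = -0.64 in TPM (permutation p = 0.00502, adjusted 0.00886, rho = -0.66 with permutation p = 0.00383, r = -0.51 without 2 mice) and r = 0.607 in CPM (permutation p = 0.00745, adjusted 0.0186, rho = 0.550 with permutation p = 0.0189, r = 0.374 without 2 mice). Neither call of Lama4 with Pecam1 held without the 2 mice (permutation p = 0.151 in CPM, adjusted permutation p = 0.0787 in TPM). With Cdh5 in TPM its r was -0.52 over 18 mice and -0.52 over 16, with an adjusted permutation p of 0.0720 in the latter, and Lama2 moved from 0.694 to 0.536 (adjusted permutation p = 0.0650), so that 5 members passed for Pecam1 and 4 for Cdh5 in place of 6. Hspg2 also changed sign, from -0.35 to 0.158 with Pecam1, and neither value passed. Lamb2 passed with neither marker on either scale, with r between -0.24 and 0.05. In CPM, 2 members instead of 7 passed for Pecam1 without 2 mice, and 5 for Cdh5.

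**Figure D3:**
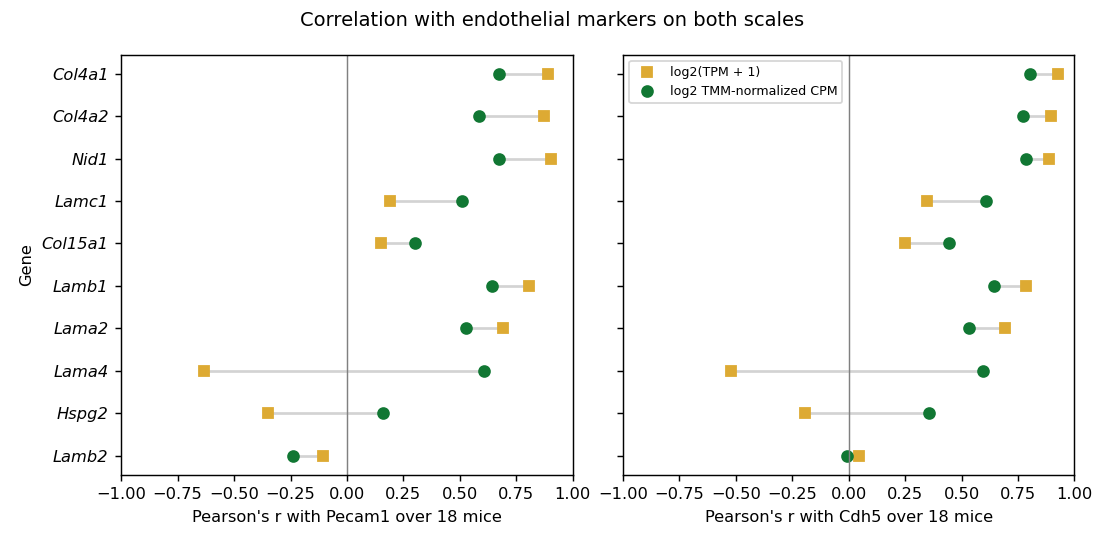
Pearson's r of each basement membrane gene with Pecam1 (left) and Cdh5 (right) over 18 mice, in log2(TPM + 1) (squares) and log2 TMM-normalized CPM (circles). Col4a1, Col4a2, Nid1 and Lamb1 have an r of at least 0.585 with both markers on both scales, and Lama4 crosses 0.

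The members were also compared with each other in log2 TMM-normalized CPM. Of 45 pairs, 38 had a positive r, 22 passed at an adjusted permutation p under 0.05, and the median r was 0.47. Of all pairs of the 12130 expressed genes 49.9% had a positive r, with a median of -0.00086, and 24.9% had an absolute r at least as large as the smallest among the 22 member pairs. In TPM, 35 of 45 member pairs were positive with a median r of 0.37, against 68.3% and 0.27 over all pairs, and 20 passed, against 34.5% of all pairs with an absolute r as large. The tightest pair was Col4a1 and Col4a2 (r = 0.959, permutation p = 1e-05, adjusted 0.00015, rho = 0.955 with permutation p = 1e-05, r = 0.931 without 2 mice), and each was the gene most like the other among 12401 expressed genes in TPM. Lamc1 and Nid1, whose products bind each other, followed with r = 0.931 (permutation p = 1e-05, adjusted 0.00015, rho = 0.932 with permutation p = 1e-05, r = 0.903 without 2 mice). In TPM the same pair gave r = 0.099 (permutation p = 0.693). Lama2 and Lamb1 gave r = 0.816 (permutation p = 3e-05, adjusted 0.000225, rho = 0.779 with permutation p = 0.00017, r = 0.719 without 2 mice).

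Lamb2 had a negative r with several of these genes in CPM, and Hspg2 was its closest member. Lamb2 and Hspg2 varied together (r = 0.825, permutation p = 3e-05, adjusted 0.000225, rho = 0.851 with permutation p = 2e-05, r = 0.729 without 2 mice), and the value was 0.866 within WT and 0.869 within Mut. Lama4 and Hspg2 gave r = 0.600 (permutation p = 0.00876, adjusted 0.0197, rho = 0.626 with permutation p = 0.00709, r = 0.767 without 2 mice). Lamb2 and its partner chain Lamc1 gave r = -0.37 in CPM (permutation p = 0.131) but 0.692 in TPM (permutation p = 0.00141, adjusted 0.00453), and Lamb2 and Lama2 gave r = -0.32 in CPM (permutation p = 0.187) and 0.166 in TPM (permutation p = 0.507). The deposited gene body coverage moved with this split. In CPM it was correlated with Lamc1 at r = -0.83 (permutation p = 3e-05), with Nid1 at r = -0.63 (permutation p = 0.00482) and with Col4a1 at r = -0.57 (permutation p = 0.0147), but with Lamb2 at 0.700 (permutation p = 0.00142) and Hspg2 at 0.535 (permutation p = 0.0230), with adjusted p between 0.0009 and 0.0389. The rho values were -0.85, -0.66, -0.51, 0.659 and 0.577 in that order. Without the 2 mice farthest from the median coverage, r was -0.74, -0.49, -0.32, 0.597 and 0.464, and 2 of 10 members passed with coverage in place of 7. Most of these calls thus did not hold without those mice. Fewer mice and a narrower range of coverage alone also make calls fewer, so the part of those 2 mice was not tested. Expressed genes in general were as strongly related to coverage, 59.0% in CPM (and 56.3% in TPM, where 7 of 10 members also passed) having an absolute r as large as the smallest of the called members, with r from -0.90 to 0.83 between the 5% and 95% points of 12130 genes in CPM, and the members lay between the percentiles 12.3 and 85.0 of that distribution. With coverage removed from both genes, Lamc1 and Nid1 gave r = 0.942, Lamb2 and Hspg2 0.747 and Col4a1 and Col4a2 0.967, whereas Lamc1 and Lamb2 turned from -0.37 to 0.533 and Lamc1 and Hspg2 from -0.03 to 0.877. All 7 negative pairs turned positive, so that 45 of 45 pairs were above 0, the lowest being Lama4 and Lamb2 at 0.00193, with a median r of 0.63 against -0.00195 over all pairs of expressed genes treated in the same way.

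**Figure D4:**
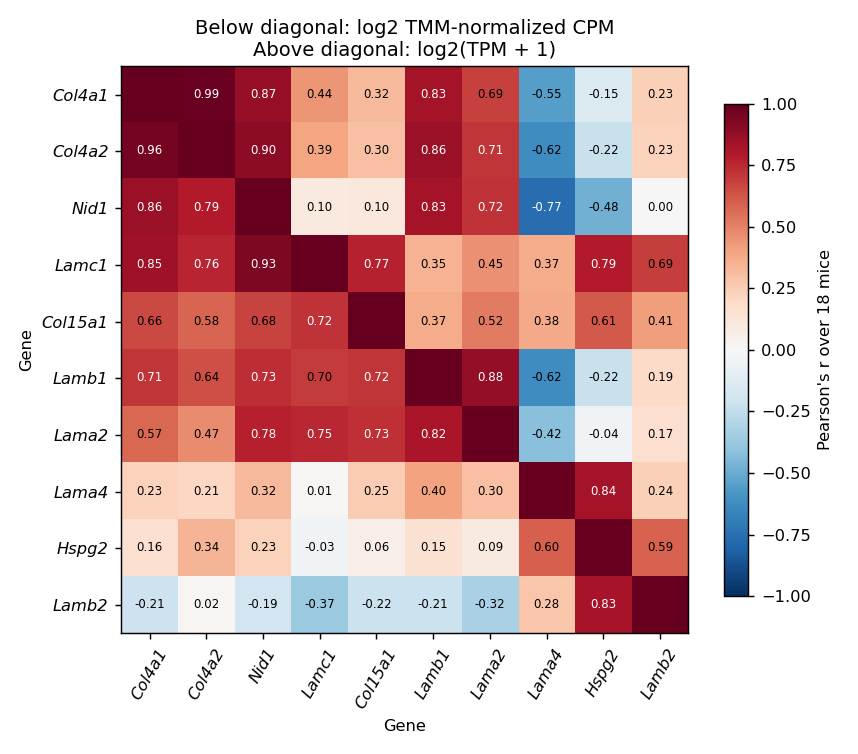
Pearson's r over 18 mice for all 45 pairs of members, in log2 TMM-normalized CPM below the diagonal and log2(TPM + 1) above it. Below the diagonal 7 genes from Col4a1 to Lama2 are positive with each other, and Lamb2 is close only to Hspg2.

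The units differ by the number of counts that stood behind each TPM in a library. This number was divided by a library factor, the median over 4767 well-measured genes of each gene's counts per TPM against its own mean. The values therefore compare a gene with the typical gene of the same library. After that scaling the number varied 1.09-fold between the lowest and the highest library for the median of these genes. It varied 4.05-fold for Lama4, 3.10-fold for Lamc1, 2.52-fold for Hspg2, 2.27-fold for Col15a1, 1.28-fold for Col4a1, and 1.02-fold for Col4a2, 1.05-fold for Pecam1 and 1.01-fold for Cdh5, the last 3 lying under the median gene. Lama4, for example, had 88.7 TMM-normalized CPM and 35.7 TPM in WT mouse 16-1 but 92.8 TMM-normalized CPM and 13.95 TPM in Mut mouse 62-1. A higher CPM thus stood beside a lower TPM.

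Counts per TPM were correlated with gene body coverage for 8 of the 10 members, negatively for 7 and positively for Nid1. An absolute r as large as the smallest of these was found in 35.9% of the 4767 genes, and Pecam1 (-0.95, permutation p = 1e-05, rho = -0.94) and Cdh5 (0.532, permutation p = 0.0226, rho = 0.569) also passed, over ranges of 1.05-fold and 1.01-fold. Lama4 gave r = -0.95 (permutation p = 1e-05, adjusted 2e-05 over 12 relations, rho = -0.96 with permutation p = 1e-05, r = -0.94 without 2 mice), and Lamc1, Col15a1 and Hspg2 gave r = -0.96, -0.98 and -0.86 (permutation p = 1e-05 each), with rho between -0.96 and -0.88. Lamb2, Lama2 and Col4a1, whose counts per TPM varied less, gave r = -0.72 (permutation p = 0.00086), -0.82 (permutation p = 3e-05) and -0.78 (permutation p = 0.00011), with rho of -0.67, -0.86 and -0.80. Nid1 gave r = 0.90 (permutation p = 1e-05, rho = 0.847) over a 1.31-fold range, and Col4a2 (0.375, permutation p = 0.128) and Lamb1 (0.0221, permutation p = 0.968) did not pass. Their rho values were 0.459 (permutation p = 0.0574) and 0.470 (permutation p = 0.0517). For Lamb1, r was -0.11 within WT and 0.784 within Mut, and WT mouse 45-1 stood apart at 180 against a median of 250 over all mice. The values within WT and within Mut were -0.95 and -0.95 for Lama4 and -0.95 and -0.98 for Lamc1. The 10 genes have between 3 and 9 annotated transcripts each, and those of Lama4 run from 511 to 6046 bases and those of Lamc1 from 466 to 7622 bases. Their part in this was not tested. The spread of a member in TPM was not always the larger one. Between the lowest and the highest mouse, Lama4 varied 3.39-fold in TPM and 1.64-fold in CPM and Col4a2 2.74-fold and 1.90-fold, but Lamc1 varied 2.06-fold in TPM and 2.57-fold in CPM and Col15a1 2.24-fold and 2.63-fold.

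**Figure D5:**
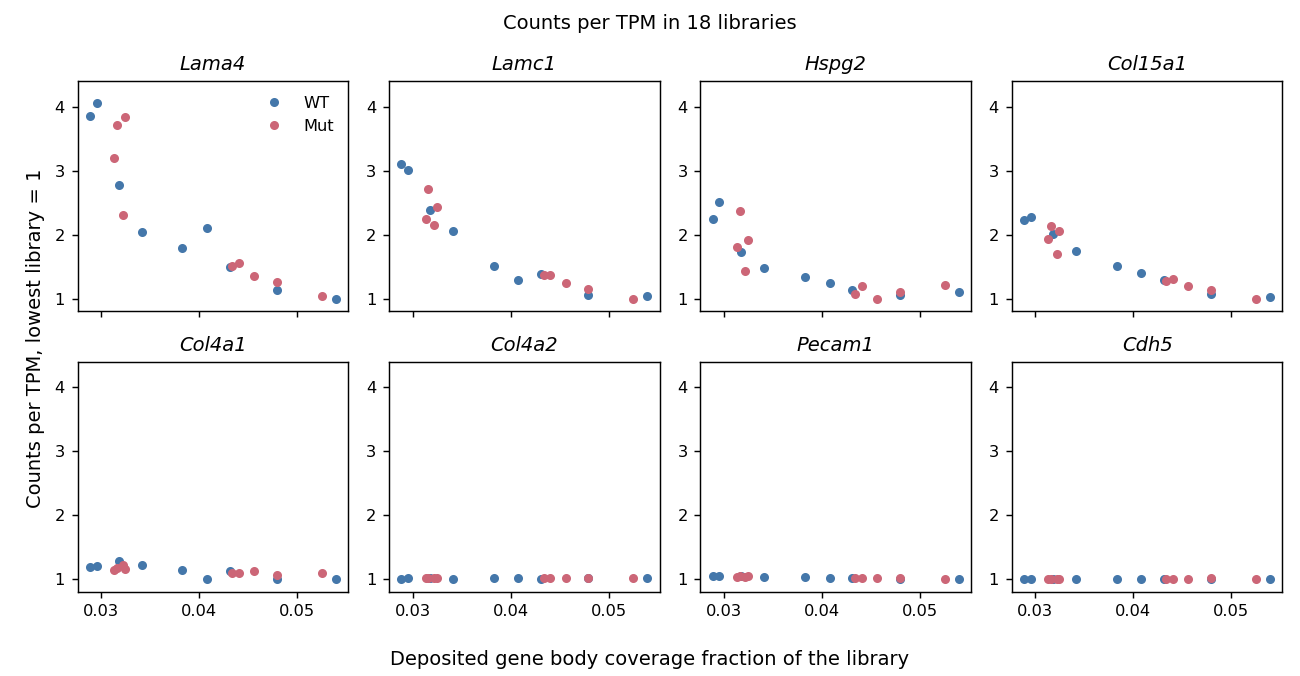
Counts per TPM relative to the typical gene of the library, scaled so that the lowest library is 1, against the deposited gene body coverage fraction in 18 libraries (WT blue, Mut red). Lama4, Lamc1, Hspg2 and Col15a1 fall with coverage in both genotypes and vary 2.27-fold to 4.05-fold over all 18 libraries. Col4a2, Pecam1 and Cdh5 stay within 1.05-fold.

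For each member the most similar gene by r of log2(TPM + 1) was taken among the 12401 expressed genes, as a description over 18 mice. Nid1 was closest to Msn, which encodes the cytoskeletal linker moesin (r = 0.979, and 0.931 in CPM). Hspg2 was closest to Kcp (0.947 and 0.897), Lamb2 to Acin1 (0.956 and 0.815), Lamb1 to the convertase gene Pcsk6 (0.935 and 0.793) and Lama2 to Crispld2 (0.935 and 0.698). For 3 members the likeness in CPM was under 0.5. Col15a1 was closest to Vim, the intermediate filament vimentin (0.950 and 0.321), Lama4 to Fam173a (0.968 and 0.484), and Lamc1 to the matrix gene Ltbp4 (0.875 and -0.04).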

How the data were processed

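RNA was measured in 18 mice, grouped by the genotype in the sample titles. The authors aligned reads to mouse m38 with STAR 2.5.2b and quantified Ensembl 89 genes with RSEM 1.2.31 (tool versions per the submitters' processing notes), and deposited expected counts and TPM without mitochondrial and rRNA genes. TPM therefore summed to 671770 to 826381 per mouse. The gene body coverage fraction, lane and RNA concentration are as deposited by the authors. Rounded expected counts entered edgeR 4.0.16 (TMM, quasi-likelihood, lane and centred RNA concentration as covariates) over the 24804 genes whose counts summed to more than 1, adjusted by Benjamini-Hochberg. DESeq2 1.42.0 and limma 3.58.1 on log2(TPM + 1) were alternatives, with other covariates, filters, scalings and each mouse left out. The fits and permutation tests were checked on simulated data. Ratios were compared by two-sided exact permutation over 48620 divisions of the mice (smallest p 4.11e-05), and correlations by 100000 resamples. Coordinates are from GENCODE vM21 on GRCm38, promoters from RefSeq. Genes named were the 10 members, Pecam1, Cdh5 and Wwp2, from each further list the called genes or else the 2 with the smallest p, and the gene most similar to each member. Some genes that this rule names are not reported here. The members and lists were chosen with earlier results of these data known. The CPM correlations beyond r, the member pairs, the counts per TPM and the settings without atrial libraries were added after seeing the data. Replicates are separate mice, and depth is given with the results.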

Additional observations from a re-analysis of the deposited data

Results flagged for a closer look

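In Mut mice, Lamb1 reached 17.2 TPM in mouse 62-1, and the next highest Mut mouse had 12.6 TPM, a gap of 0.503 of the whole range of the group, above the 95% critical value of Dixon's test for 9 mice. The 10 members, Pecam1 and Cdh5 in TPM and CPM and the 5 ratios gave 58 groups tested in this way, of which chance marks about 1 in 20, and this was the only one found. The same mouse had the highest Mut value of Lamb1 in CPM, 122, and the highest Mut TPM of Col4a1 (122), Col4a2 (65.1), Lama2 (19.95), Lamc1 (30.9), Nid1 (28.4), Pecam1 (52.6) and Cdh5 (56.2).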

How the results depend on the processing

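The members called (0 of 10) and the genes called in the other basement membrane lists (0) were 0 under every alternative run, and members with an unadjusted p under 0.05 were 0 except for 1, Col15a1, when WT mouse 16-1 was left out (range 0 to 1). The count of members under 0 moved from 9 to 2 with no covariates and to 2 with lane alone, and to 5 without the libraries with atrial transcripts, where 0 genes in all were called and Wwp2 had a log2 fold change of -1.26 and an edgeR FDR of 0.204. The cause of these moves was not tested. With no covariates the log2 fold changes that turned positive were 0.0751 for Col4a1, 0.0609 for Col4a2, 0.067 for Lama2, 0.0395 for Lamb1, 0.00877 for Lamc1, 0.0369 for Nid1, 0.0143 for Hspg2 and 0.128 for Cdh5. With lane alone they were 0.0948, 0.0799, 0.0478, 0.0273, 0.0212, 0.0421, 0.0374 and 0.135 in the same order. With coverage added Col4a1 was 0.0636, Col4a2 0.0226 and Lama4 -0.0343. By limma on log2(TPM + 1) and log2(TPM + 0.1) Pecam1 was -0.114 and -0.117. Without the atrial libraries Col4a1 was 0.0476, Col4a2 0.0805, Lamb2 0.0383, Hspg2 0.0955 and Cdh5 0.0113. With single mice left out, log2 fold changes ranged from -0.141 to 0.0376 for Col4a1, -0.12 to 0.0204 for Col4a2, -0.0725 to 0.0524 for Lama4, -0.161 to 0.0192 for Hspg2, -0.00978 to 0.101 for Pecam1 and -0.0997 to 0.0493 for Cdh5. By counts the Lama4 to Lama2 ratio differed by -0.00717 and Nid1 to Lamc1 by 0.0142, and without the atrial libraries the former by -0.148. With single mice left out the ratio differences ranged from -0.0331 to 0.00191 for Col4a2 to Col4a1, -0.104 to 0.181 for Lama4 to Lama2 and -0.213 to 0.00925 for Nid1 to Lamc1. Relative to the wider endothelial list the differences were 0.0147 for Col4a1, 0.0227 for Lama2, 0.0438 for Lama4, 0.0149 for Lamc1 and 0.0143 for Hspg2, and without the atrial libraries 0.0142 for Col15a1 and 0.0228 for Lama2 relative to Pecam1 and Cdh5. With single mice left out those relative differences ranged from -0.0994 to 0.00563 for Lama2, -0.192 to 0.12 for Lama4, -0.133 to 0.0227 for Lamc1 and -0.185 to 0.0717 for Hspg2, and members passing at p under 0.05 were 0 to 1.

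From TPM to CPM, r turned to 0.607 and 0.597 for Lama4 with Pecam1 and Cdh5, 0.158 and 0.356 for Hspg2, -0.00785 for Lamb2 with Cdh5, and -0.515 for Col15a1 and -0.83 for Lamc1 with coverage. In TPM, Lamb2 with Cdh5 was -0.0279 by Spearman's rho, -0.14 without 2 mice, -0.0928 within WT and -0.0689 without the atrial libraries, and Lamb2 with Pecam1 was 0.0449 without 2 mice. Col15a1 was -0.0244 with Cdh5 without 2 mice, -0.0354 with Pecam1 within Mut and -0.181 with coverage within WT. In CPM, Lamb2 with Cdh5 was 0.096 by Spearman's rho and 0.224 within Mut, Lamb2 with Pecam1 0.0402 within Mut and Hspg2 with Pecam1 -0.193 within WT. In TPM, where the median r of all 12401 expressed genes with coverage was -0.575 and 56.3% had an absolute r as large as the smallest of the called members, 7 members were correlated with coverage, 3 without 2 mice and 4 within Mut. In CPM, 7 did, 4 by Spearman's rho, 2 without 2 mice, 3 within WT and 0 within Mut. Members passing in CPM were 0 within WT, 1 within Mut and 2 without 2 mice for Pecam1, and 1 within WT and 3 within Mut for Cdh5, where 9 mice were tested in place of 18. No paired analysis was possible because the mouse numbers are not shared between the genotypes. The lowest count of a member in a library was 1347, so counting error was small beside the spread between mice.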
